A study of Mus musculus with 12 samples.

Results

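The genes described here encode smooth muscle actin and the contractile proteins that work with it: Acta2, Tagln, Cnn1, Cnn2, Myl9, Tpm1, Tpm2, Tpm4 and Flna. They are 9 of the 54446 genes, and their 59 transcripts are among the 137767 transcripts, in the RNA-seq tables of mouse embryonic stem cells (mESCs) and NIH3T3 fibroblasts. They were taken by gene symbol, and peaks of all 7 ChIP-seq lists were collected over each gene body, 5 kb upstream of it and 5 kb downstream. The study mapped the Paf1 complex (Paf1C), which travels with RNA polymerase II (RNAPII), through its subunit Ctr9. Both cell types are established lines, E14 for the mESCs and NIH-3T3 for the embryonic fibroblasts, and both were grown in the same serum medium with the cytokine LIF. Ctr9 was read through GFP fused to the end of the endogenous gene in each line, in pools of sorted GFP-positive cells rather than in single clones. NELFA, a subunit of the pausing factor NELF, was read through a GFP tag in a separate mESC line, and RNAPII phosphorylated at serine 5 (Ser5p) was mapped in that NELFA-tagged line. RNAPII phosphorylated at serine 2 (Ser2p) and histone H3 acetylated at lysine 27 (H3K27ac), a mark of active promoters and enhancers, were mapped with antibodies. For the RNA-seq libraries the labels give the cell line and name no tag.

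Actin filaments slide past myosin when cells contract, and in myofibroblasts and cultured fibroblasts the filaments are bundled into stress fibres. Tropomyosins coil along actin and decide which other proteins bind it, calponins and transgelin bind the same filaments, the regulatory light chain switches myosin on, and filamin cross-links filaments and ties them to integrins. Many genes for these proteins are switched on by serum response factor (SRF), which binds a short DNA element named the CArG box together with the actin-sensing coactivators Mkl1 and Mkl2 or, in smooth muscle, myocardin.

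Every library was a single run, so no value has a replicate and no test between the cell types could be made. The RNA-seq libraries held 26400407 estimated counts in mESCs and 28849497 in NIH3T3 cells. The labels matched their markers: 5 of 5 stem cell markers were at least 2-fold lower in NIH3T3 cells, with summed levels of 2544 and 0.511 TPM, and 6 of 6 fibroblast markers were at least 2-fold higher, with summed levels of 82.2 and 2664 TPM. TPM is a transcript level scaled for transcript length, so that all transcripts of a library sum to 1000000. Of the 5 striated muscle markers, Myod1, Myog, Ckm and Myh6 were under 1 TPM in both libraries, and Tnnt2 was at 1.55 TPM in mESCs and 7.85 TPM in NIH3T3 cells. The peak lists ranged from 1675 peaks for RNAPII Ser2p to 44748 for Ctr9 in mESCs. They hold no read counts, so their depth is unknown, and the absence of a peak means only that none was called.

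All 9 genes had a higher mRNA level in NIH3T3 cells, from 2.48-fold for Flna to 174-fold for Acta2. The level of a gene is the TPM of its highest transcript in each library, and the fold is between TPM + 1 values, which understates the difference of genes at low TPM. Of the 12379 protein-coding genes with at least 1 TPM in either library, 20% were at least 2-fold higher in NIH3T3 cells and 23.8% were at least 2-fold lower. The median log2 difference was 3.04 over the 9 genes and -0.13 over all 12379. The 9 genes were chosen with earlier results of these data known, so their excess over all genes is a description and not a test. Summed over the 9 genes, the level was 168 TPM in mESCs and 1443 TPM in NIH3T3 cells. In these bulk libraries, more cells that express a gene and more RNA in each cell cannot be told apart.

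**Figure D1:**
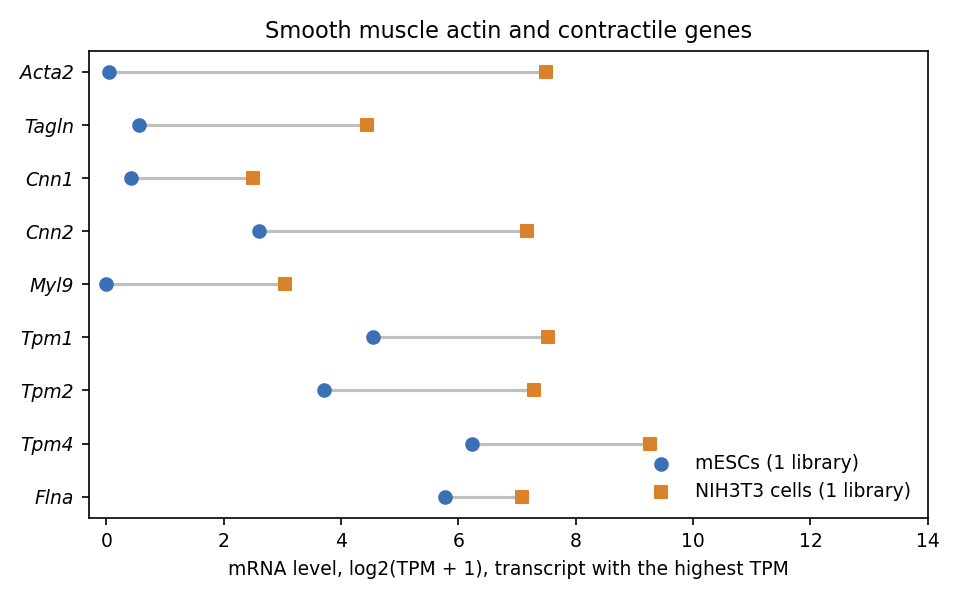
mRNA level of each gene as log2(TPM + 1) of its highest transcript, with mESCs as blue circles and NIH3T3 cells as orange squares, 1 library each, so no error bar is drawn. Every square lies to the right of its circle, with the longest line for Acta2 and the shortest for Flna.

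Acta2 encodes smooth muscle alpha-actin, the actin isoform that myofibroblasts add to their stress fibres (ENSMUSG00000035783, mm10 chromosome 19 from 34241090 to 34255590, minus strand). Its only transcript in the tables was at 0.0337 TPM in mESCs and 179 TPM in NIH3T3 cells. Behind these levels stood 1 estimated count and 5724 estimated counts. On the scale of CPM, estimated counts per 1000000 of the library, the ratio was 5238, with an exact 95% interval of 939.8 to 206929 that covers counting error only, as do all intervals given here. By its log2 difference of 7.45, Acta2 ranked 28 from the top among the 12379 genes. The actins that all cells use differed far less. Actb was at 1157 TPM in mESCs and 2120 TPM in NIH3T3 cells, and Actg1 was at 599 TPM and 1186 TPM, both within 2-fold, though Actg1 passed 2-fold when NIH3T3 values were scaled by the median ratio. The muscle actins Acta1, Actc1 and Actg2 stayed under 1 TPM in both libraries. Actins are alike in much of their coding sequence, so the split of reads between them is an estimate.

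Tagln encodes transgelin, a small protein that binds actin filaments in smooth muscle (ENSMUSG00000032085, chromosome 9 from 45929619 to 45936058, minus strand). It was at 0.468 TPM in mESCs and 20.8 TPM in NIH3T3 cells, a log2 difference of 3.89. The estimated counts were 14 (exact Poisson interval 7.65 to 23.5) and 711 (660 to 765), a CPM ratio of 46.5 (27.5 to 85.4). The full-length transcript Tagln-201 held 58.2% of the TPM of the gene in NIH3T3 cells, and the short Tagln-202 the remainder.

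The calponins bind actin and slow its sliding over myosin, Cnn1 mainly in smooth muscle and Cnn2 in many cell types. Cnn2 (ENSMUSG00000004665, chromosome 10 from 79988584 to 79996062, plus strand) was at 5.1 TPM in mESCs and 143 TPM in NIH3T3 cells, on 324 and 8699 estimated counts. Its CPM ratio was 24.6 (22.0 to 27.5). The shorter Cnn2-202 was at 4.61 TPM and 69.0 TPM. Cnn1 (ENSMUSG00000001349, chromosome 9 from 22099216 to 22109630, plus strand) was at 0.341 TPM and 4.67 TPM, on 9 and 110.0 estimated counts, with a CPM ratio of 11.2 (5.68 to 25.1). The values chosen for Cnn1 came from short transcripts: the noncoding Cnn1-204 of 647 bases in mESCs, and in NIH3T3 cells Cnn1-202 of 370 bases, which rests on 17 estimated counts. The full-length Cnn1-201 was at 0.0851 TPM and 0.941 TPM. The full-length mRNA of the calponin typical of smooth muscle was thus estimated at under 1 TPM in both libraries. In NIH3T3 cells that estimate is close to 1 TPM and rests on 45.8 estimated counts. The split of reads among the Cnn1 transcripts is uncertain.

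Myl9 encodes the regulatory light chain of smooth muscle and non-muscle myosin (ENSMUSG00000067818, chromosome 2 from 156775420 to 156781658, plus strand). No estimated count fell on it in mESCs, and 131 (110.0 to 155) fell on it in NIH3T3 cells. Set against an assumed floor of 3 counts in the mESC library, its CPM was 40.0-fold higher in NIH3T3 cells. The exact 95% interval of the ratio began lower, at 32.0, so 40.0 is not a lower bound. Its highest transcript there, the noncoding Myl9-203, was at 7.25 TPM, and the coding Myl9-201 was at 5.15 TPM. Its closest relatives among the light chain genes carried far more mRNA. Myl12a was at 155 TPM in mESCs and 466 TPM in NIH3T3 cells, and Myl12b was at 164 TPM and 96.7 TPM. Reads that these 3 genes share could have been assigned to any of them.

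Flna encodes filamin A, which joins actin filaments at wide angles and binds integrins (ENSMUSG00000031328, chromosome X from 74223461 to 74249820, minus strand). It was the gene with the smallest difference, at 53.6 TPM in mESCs and 134 TPM in NIH3T3 cells, a log2 difference of 1.31. The highest transcript was not the same in both, Flna-202 in mESCs and Flna-201 in NIH3T3 cells, and over all transcripts the CPM ratio was 4.45 (4.37 to 4.54). Of its 15 transcripts, 7 reached 1 TPM in mESCs and 11 in NIH3T3 cells. The transcript Flna-213, annotated as a target of nonsense-mediated decay, was at 0.0102 TPM in mESCs and 95.7 TPM in NIH3T3 cells, where it took 20.6% of the TPM of the gene. Flna-201, Flna-202 and Flna-213 start within 157 bases of each other and are alike in length, so their split is uncertain while their sum is less so.

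Tpm1, Tpm2 and Tpm4 encode tropomyosins. Tpm4 (ENSMUSG00000031799, chromosome 8 from 72134975 to 72153142, plus strand) was at 73.8 TPM in mESCs and 615 TPM in NIH3T3 cells, all from the coding Tpm4-201. By the highest transcript this was the top level of the 9 genes in both cell types, but summed over transcripts Flna was above it in mESCs, at 93.1 TPM. Its CPM ratio was 8.29 (7.96 to 8.63). Tpm2 (ENSMUSG00000028464, chromosome 4 from 43514711 to 43523765, minus strand) was at 12.1 TPM and 155 TPM, with a CPM ratio of 16.4 (14.3 to 18.9). Tpm2-203 held most of it in both libraries, 97.5% of the TPM in mESCs and 87.0% in NIH3T3 cells, and Tpm2-202 rested on 10.3 estimated counts in mESCs and 979 in NIH3T3 cells, at 0.247 TPM and 21.7 TPM. Tpm3, the tropomyosin gene outside the 9, was at 293 TPM in mESCs and 280.5 TPM in NIH3T3 cells, a log2 difference of -0.06. In mESCs Tpm3 was therefore above all of the other tropomyosin genes, and in NIH3T3 cells Tpm4 was.

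Tpm1 (ENSMUSG00000032366, chromosome 9 from 67022590 to 67049406, minus strand) has 21 transcripts in the tables, which begin in 3 groups when starts within 500 bases of each other are joined. A first group of 13 transcripts begins in the first 288 bases of the gene, an internal group of 7 begins 5444 to 5697 bases into it, and 1 noncoding transcript begins 16581 bases in. Tpm1 is known to make long proteins from the first start and short ones from the internal start. In mESCs the first group summed to 6.04 TPM and the internal group to 62.0 TPM, and in NIH3T3 cells the sums were 248 TPM and 195 TPM. The first group thus held 8.71% of the Tpm1 TPM in mESCs and 54.9% in NIH3T3 cells. In estimated counts the share was 9.36% (exact 95% interval 7.95% to 10.9%) and 54.7% (53.8% to 55.5%). The first group was 41.1 times as high in NIH3T3 cells as in mESCs, and the internal group 3.14 times.

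Of the 21 Tpm1 transcripts, 10 reached 1 TPM in mESCs and 13 in NIH3T3 cells. In NIH3T3 cells the highest at the internal start was Tpm1-211 at 184 TPM, and the highest at the first start were Tpm1-213 at 126 TPM and Tpm1-216 at 45.1 TPM. In mESCs Tpm1-211 was at 16.9 TPM, Tpm1-213 at 0 and Tpm1-216 at 0.139 TPM, and the highest at the first start was Tpm1-201 at 2.68 TPM, which was at 22.3 TPM in NIH3T3 cells. Tpm1-204, at the internal start, was at 10.8 TPM in mESCs and at 0 in NIH3T3 cells. The highest Tpm1 transcript in mESCs was Tpm1-220, annotated as a target of nonsense-mediated decay, at 22.3 TPM, and it was at 0 in NIH3T3 cells. Since kallisto divides reads among isoforms that share exons, the sums over a start group are firmer than the values of single transcripts.

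**Figure D2:**
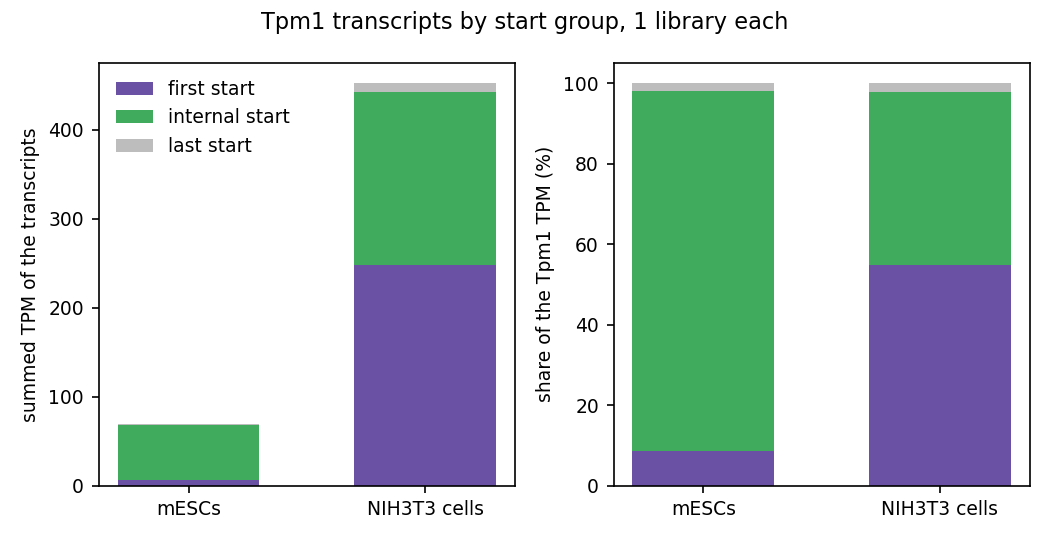
Tpm1 transcripts summed by start group, as TPM (left) and as percent of the Tpm1 TPM (right), in 1 library of each cell type. The first start (purple) takes 8.71% in mESCs and 54.9% in NIH3T3 cells, while the TPM of the internal start (green) is also higher in NIH3T3 cells, and the last start (grey) holds 1.94% and 2.15%.

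The 250 bases before the most upstream start of each group are printed because the shares of these groups differed. They lie outside every annotated exon and were read from the GRCm38.p6 genome, the build named mm10, on the minus strand, at chr9:67049407-67049656 for the first start and chr9:67043963-67044212 for the internal start. Capitals mark CG dinucleotides.
Tpm1 first start: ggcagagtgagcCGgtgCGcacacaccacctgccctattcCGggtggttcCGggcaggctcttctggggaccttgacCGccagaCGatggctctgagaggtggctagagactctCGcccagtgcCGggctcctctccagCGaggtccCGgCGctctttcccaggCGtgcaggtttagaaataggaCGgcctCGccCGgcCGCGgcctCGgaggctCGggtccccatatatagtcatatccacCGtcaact
Tpm1 internal start: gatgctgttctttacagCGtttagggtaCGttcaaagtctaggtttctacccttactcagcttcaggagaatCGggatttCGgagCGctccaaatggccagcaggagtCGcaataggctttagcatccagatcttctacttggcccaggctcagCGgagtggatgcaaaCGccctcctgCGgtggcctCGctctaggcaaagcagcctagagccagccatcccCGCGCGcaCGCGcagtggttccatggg
The stretch at the first start held 20 CG dinucleotides and 64.8% G and C, and the internal one 15 and 56.8%. Neither held a CArG box or a CArG-like element. Tpm1-211, the highest at the internal start in NIH3T3 cells, begins 5604 bases into the gene, farther in than the printed stretch reaches. The bases directly before it were therefore not searched. At the first start Tpm1-213 begins 131 bases in, also past the printed stretch.

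A CArG box is taken as the letters CC, 6 letters that are A or T, and GG, and a CArG-like element has exactly 1 letter other than A or T among the 6. The motif reads the same way on both strands. The RefSeq table of promoters (GRCm38.p6) matched 8 of the 9 genes, all but Tagln, and the 250 bases before the RefSeq start were searched. A CArG box was found in 2 of the 8, Cnn2 and Myl9, and a CArG-like element also in 2 of the 8, Acta2 and Myl9. Among all 32851 promoters of the table, 1.47% held a CArG box and 7.24% a CArG-like element. In the 45 promoters of the 5 other contractile gene lists described below, 9 (20%) held a CArG box and 10 (22.2%) a CArG-like element. The promoters with a box were those of Acta1, Actc1, Actg1, Myl6, Vcl, Fermt2, Srf itself and Fhl2, which has more than 1 promoter listed. Of these genes, Vcl, Srf and Fhl2 were at least 2-fold higher in NIH3T3 cells, with log2 differences of 1.42, 1.15 and 5.43. Acta1 and Actc1 were under 1 TPM in both libraries, and Actg1, Myl6 and Fermt2 were within 2-fold. Summed over its transcripts, Myl6 passed 2-fold, at 483 TPM in mESCs and 1003 TPM in NIH3T3 cells. The elements of the 9 genes are printed with 10 bases on each side and the element in capitals, since they are the known kind of SRF site in this gene class.
Acta2, 84 bases before the start, chr19:34255438-34255467, minus strand: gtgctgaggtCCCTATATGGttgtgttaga
Acta2, 34 bases before the start, chr19:34255388-34255417, minus strand: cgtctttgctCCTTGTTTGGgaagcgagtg
Cnn2, 56 bases before the start, chr10:79988534-79988563, plus strand: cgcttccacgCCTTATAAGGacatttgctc
Myl9, 161 bases before the start, chr2:156775293-156775322, plus strand: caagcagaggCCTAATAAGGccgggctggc
Myl9, 99 bases before the start, chr2:156775355-156775384, plus strand: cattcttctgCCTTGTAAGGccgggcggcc
Distances count from the first base of the element to the RefSeq start. For Acta2 the GENCODE start lies farther upstream, so both of its elements fall inside the annotated transcript there. A match is a description of the letters, and no binding of SRF was measured in these cells.

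Beyond the 9 genes, 49 genes in 5 lists of the same machinery were read, and 41 of them had at least 1 TPM. Of these, 16 were at least 2-fold higher in NIH3T3 cells, against 20% of all genes, 3 were at least 2-fold lower, against 23.8%, and 22 lay between. Their median log2 difference was 0.80. These lists too were chosen with earlier results of these data known. Of the closest relatives of the 9 genes, 2 of 9 were higher, the muscle filamin Flnc (1.51 TPM in mESCs, 66.7 TPM in NIH3T3 cells) and Myl12a. Tagln2, Cnn3 and Tpm3 were within 2-fold. Tagln3, a transgelin of neurons, was at least 2-fold lower, at 4.67 TPM in mESCs and 0.0784 TPM in NIH3T3 cells on 111 and 2 estimated counts. So within the transgelin family Tagln was higher in NIH3T3 cells, Tagln2 within 2-fold and Tagln3 lower, and within the calponin and tropomyosin families Cnn3 and Tpm3 lay within 2-fold.

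Of 10 other genes of smooth muscle differentiation, 6 reached 1 TPM, and 3 of these were higher and 1 lower by 2-fold. Cald1, the gene for the actin-binding caldesmon, was at 11.2 TPM in mESCs and 126 TPM in NIH3T3 cells. Des, the gene for the intermediate filament protein desmin, was the lower one, at 4.88 TPM and 0.335 TPM on 368 and 16 estimated counts. Myh11, the heavy chain of smooth muscle myosin and the most specific marker of that tissue, was at 0.0518 TPM and 0.0330 TPM, and Lmod1, Synpo2 and Synm were also under 1 TPM. In NIH3T3 cells the mRNA of Acta2 was thus seen with that of Myh11 under 1 TPM.

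Of 16 stress fibre and focal adhesion genes, 8 were higher and none was lower by 2-fold. The largest log2 differences were 5.43 for Zyx (2.18 TPM and 136 TPM), whose product zyxin marks tensed stress fibres, and 4.68 for Parva (1.31 TPM and 58.2 TPM), an adaptor between integrins and actin. The non-muscle myosin heavy chains Myh9 and Myh10, vinculin (Vcl), talin (Tln1), Ilk and Itga5 were the others, with log2 differences from 1.06 to 1.79. When transcripts of a gene were summed, 1 gene of this list was at least 2-fold lower, Lasp1, at 204 TPM in mESCs and 67.1 TPM in NIH3T3 cells.

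Among 9 regulators, 3 were higher. Srf was at 12.7 TPM in mESCs and 29.3 TPM in NIH3T3 cells, and Mkl1 was at 6.85 TPM and 24.1 TPM. Fhl2, a partner of SRF, was at 0.343 TPM and 56.8 TPM. Mkl2 was within 2-fold (4.06 TPM and 7.83 TPM), and Myocd, the gene for myocardin, was at 0.108 TPM and 0.118 TPM. Diaph1, a formin that builds straight actin filaments, was at least 2-fold lower, at 29.4 TPM and 7.49 TPM, while Rhoa, Rock1 and Rock2 lay within 2-fold.

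**Figure D3:**
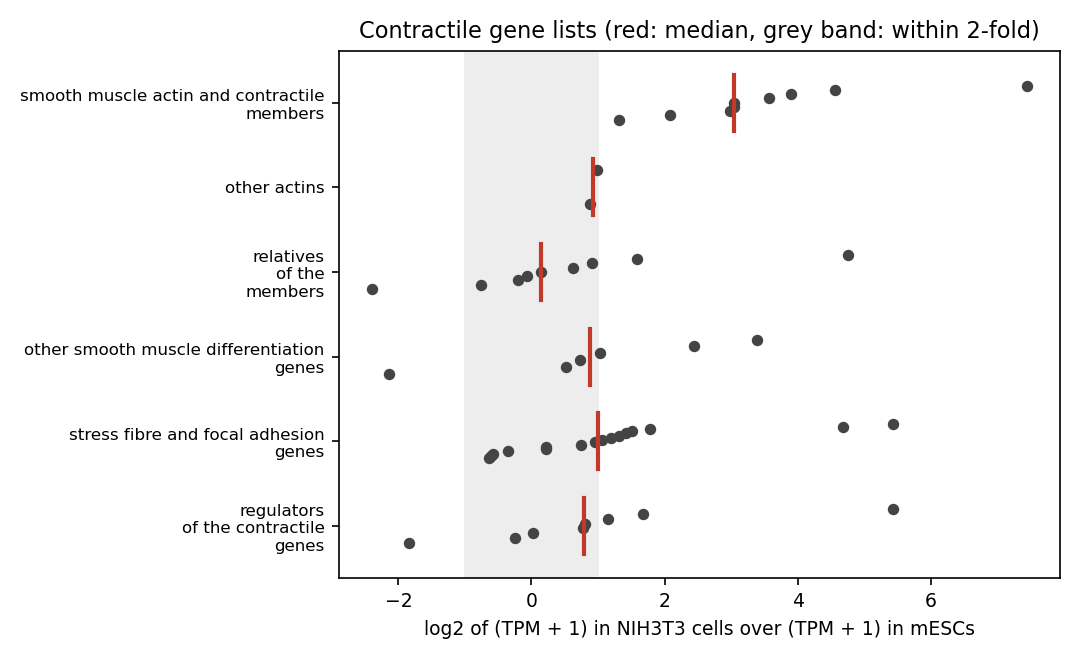
Log2 difference in mRNA level (TPM + 1) between NIH3T3 cells and mESCs, 1 library each, for genes of the 9-gene set and 5 related lists with at least 1 TPM in either library; each point is a gene, the red line is the median and the grey band is within 2-fold. All 9 points of the top list lie to the right of the band, and the other medians lie between 0.14 and 1.01.

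Ctr9 was mapped to ask where the Paf1 complex sits, and a similar number of these genes had a peak in the 2 cell types. In mESCs 6 of the 9 genes had a Ctr9 peak in the gene body or within 5 kb, against 45.6% of all 21938 protein-coding genes, and in NIH3T3 cells 5 of the 9 had one, against 26.9%. The 9 windows held 20 Ctr9 peaks in mESCs and 35 in NIH3T3 cells, while the whole lists held 44748 and 22016. NIH3T3 cells had more peaks at Tpm1 (2 and 12), Flna (3 and 10) and Acta2 (0 and 3). They had fewer at Tpm4 (11 and 9), Tagln (2 and 1), Cnn1 (1 and 0) and Cnn2 (1 and 0). The gene body held 10 of the 20 summits in mESCs and 26 of the 35 in NIH3T3 cells, and no like share over all genes was computed. The number and width of called peaks also depend on depth, which is unknown. The fold enrichment over the background of the peak caller ranged from 2.49 to 5.78 in mESCs and from 3.14 to 11.3 in NIH3T3 cells, but each list has its own depth and threshold, so these heights are not on 1 scale. Ctr9 peaks were found in both cell types at 4 of the 9 genes (Tagln, Tpm1, Tpm4 and Flna), against 23.6% of all genes, and only in mESCs at 2 (Cnn1 and Cnn2), against 22%. When the window was reduced to the gene body, 3 genes kept a Ctr9 peak in mESCs (Tagln, Tpm4 and Flna) and 5 in NIH3T3 cells.

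H3K27ac was found at 4 of the 9 genes in mESCs, against 44.5% of all genes, and at 7 of the 9 in NIH3T3 cells, against 56%. It was called only in NIH3T3 cells at 3 genes (Acta2, Tagln and Tpm2), against 16%, in both cell types at 4 (Cnn2, Tpm1, Tpm4 and Flna), against 40%, and only in mESCs at 0, against 4.52%. The windows held 6 H3K27ac peaks in mESCs and 34 in NIH3T3 cells. All 6 of the mESC peaks overlapped an NIH3T3 peak, against 47.1% of all mESC H3K27ac peaks, and 5 of the 34 NIH3T3 peaks (14.7%) overlapped an mESC peak, against 24.8% of all. The lists hold 19417 peaks in mESCs and 34241 in NIH3T3 cells, and the smaller list allows fewer overlaps. In NIH3T3 cells 9 of the 35 Ctr9 peaks (25.7%) overlapped an H3K27ac peak, against 21.7% of all Ctr9 peaks of the list, and 10 of the 34 H3K27ac peaks (29.4%) overlapped a Ctr9 peak, against 12.7% of all. The shares over all peaks include peaks outside gene windows, so they are not like for like. Peaks of the same gene are also not independent, and Tpm1, Flna and Tpm4 held 12, 10 and 9 of the 35 Ctr9 peaks.

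The peaks were also read against genes of like level, with high expression as the top 25% of genes above 0 TPM. In mESCs this class began at 21.6 TPM and held Tpm1, Tpm4 and Flna, and 3 of the 3 had a Ctr9 peak, against 92.3% of the class, and an H3K27ac peak, against 90.5%. In NIH3T3 cells it began at 23.5 TPM and held 6 of the 9 genes, of which 4 had a Ctr9 peak, against 66.5% of the class, and 6 an H3K27ac peak, against 97.6%. With 3 and 6 genes these counts do not set the contractile genes apart from their class.

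NELFA holds polymerase shortly after the start, and its peaks in mESCs were found at 2 of the 9 genes, Tpm1 and Flna, against 10.9% of all genes. No RNAPII Ser5p peak, against 13.5% of all genes, and no Ser2p peak, against 7.54%, was called in any of the 9 windows. These 3 lists are short, and the nearest Ser5p peak to a gene of the set lay 11179 bases from Cnn2.

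**Figure D4:**
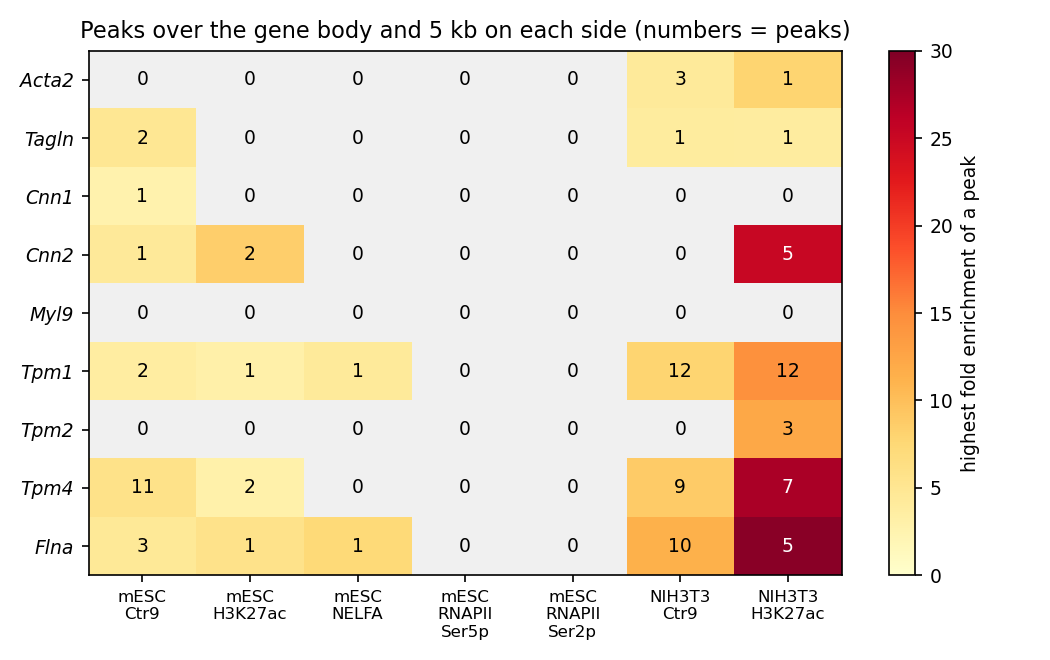
Number of peaks (digits) over the gene body and 5 kb on each side for each gene and peak list, coloured by the highest fold enrichment among them, with grey where no peak was called; each list comes from 1 library. The highest counts are 12 and 12 at Tpm1 in the NIH3T3 columns and 11 at Tpm4 in the mESC Ctr9 column, and Myl9 has none in any column.

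The genes fell into different patterns. Acta2 had no peak of any of the 5 lists in mESCs, where the nearest Ctr9 peak lay 689646 bases away. In NIH3T3 cells it had an H3K27ac peak of 2261 bases over its start (fold enrichment 7.89), which spanned both printed CArG-like elements, and 3 Ctr9 peaks, with summits 8778, 12381 and 14739 bases past the start and fold enrichments of 3.47, 4.23 and 3.17. The first 2 of these summits lie in introns, and the last lies 239 bases beyond the end of the gene. A Ctr9 peak in NIH3T3 cells and none in mESCs was found at 3.32% of all genes, and Acta2 was the single gene of the 9 with that pattern.

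At Tagln, Ctr9 peaks covered more of the gene in the cell type with less mRNA. In mESCs, where its level was 0.468 TPM, 2 intronic Ctr9 peaks (fold enrichments 4.89 and 4.55) covered 36.7% of the gene body, with summits 3808 and 3157 bases past the start. Of the genes of low expression in mESCs, 20.5% had a Ctr9 peak in the window. Both peaks lie within the antisense gene Gm48529, which was at 0.532 TPM in mESCs and 0.831 TPM in NIH3T3 cells, so they cannot be assigned to one strand. No H3K27ac peak was called there in mESCs. In NIH3T3 cells a single Ctr9 peak (3.98) and a single H3K27ac peak (3.78) lay at the start, with summits 133 and 369 bases into the gene, and the mESC positions had no peak. Both were weak calls, with a −log10 q of 4.81 and 3.68.

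Cnn1, Cnn2, Tpm2 and Myl9 had no Ctr9 peak in NIH3T3 cells, the cell type in which their mRNA was higher. Cnn2 and Tpm2 belong to the high expression class of NIH3T3 cells, and of the 3662 genes of that class 31.5% had H3K27ac and no Ctr9 peak, as these 2 did. At Cnn2, an H3K27ac peak of 2980 bases with a fold enrichment of 19.4 had its summit 161 bases before the start and spanned the printed CArG box. In mESCs the only H3K27ac peaks of the Cnn2 window lay farther upstream, over Tmem259 and Gm26243, and the Ctr9 peak lay downstream in Abca7, which was at 1.99 TPM. Tpm2 had 3 H3K27ac peaks around its start in NIH3T3 cells, the highest with a fold enrichment of 12.3, and no peak in mESCs.

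Cnn1 had a single weak Ctr9 peak in mESCs (2.63), 1493 bases beyond its end, and no peak in its window in NIH3T3 cells. There its nearest H3K27ac peak lay 6576 bases from the gene body, just outside the 5 kb window. Myl9 had no peak of any list in either cell type, as did 34.6% of all genes, and in NIH3T3 cells its nearest H3K27ac peak lay 53046 bases away. At 7.25 TPM Myl9 was of medium expression, a class in which 90.9% of genes had an H3K27ac peak in NIH3T3 cells. Of the 3 contractile genes of that class, Cnn1, Myl9 and Tagln, 1 had such a peak, Tagln.

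At Tpm1 the 2 starts seen in the mRNA were also visible in chromatin. In mESCs the NELFA peak (4.31) and the only H3K27ac peak (2.97) both lay over the internal start, with summits 5715 and 5581 bases into the gene, and the first start had no peak of any list. In NIH3T3 cells 12 H3K27ac peaks were called, the highest (14.5) with its summit 553 bases past the first start, and the peak over the internal start had a fold enrichment of 8.24. Ctr9 in mESCs lay only downstream of the gene, in 2 peaks with fold enrichments of 3.71 and 2.63. In NIH3T3 cells 12 Ctr9 peaks covered 31.2% of the gene body, and their summits lay from 13046 to 29129 bases past the first start, toward and beyond the end of the gene. None of the 12 Ctr9 peaks lay over either of the 2 main starts. The printed stretch before the internal start fell between 2 H3K27ac peaks of NIH3T3 cells, and that before the first start was partly covered by one with a fold enrichment of 6.05.

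Flna resembled Tpm1 in mESCs. A NELFA peak (7.36), an H3K27ac peak (5.71) and a Ctr9 peak (3.71) lay within 466 bases of its main start, which is 3265 to 3456 bases past the first annotated start, and 2 more Ctr9 peaks lay past its end. Ctr9 covered 0.823% of the gene body in mESCs and 59.7% in NIH3T3 cells. The NIH3T3 peaks included stretches of 6264 and 5248 bases over the later exons and introns, a peak just past the main start with the highest Ctr9 fold enrichment at the 9 genes (11.3), and a 7948-base peak beyond the end whose summit lay outside the window. The highest H3K27ac peak at the main start in NIH3T3 cells had a fold enrichment of 25.8, and a higher one (29.4) at the edge of the window lay over the neighbouring gene Emd.

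Tpm4 had the most Ctr9 peaks of the 9 genes in mESCs, 11 peaks that covered 26.1% of its body, against 9 peaks and 20.7% in NIH3T3 cells. In both cell types they gathered near the end: the highest in mESCs (5.78) had its summit 1649 bases before the end and the highest in NIH3T3 cells (8.86) 798 bases past it. The antisense transcript Gm16091 overlaps this end and was at 0.0648 TPM in mESCs and listed at 0 in NIH3T3 cells. H3K27ac at the start had a fold enrichment of at most 2.93 in mESCs (2 peaks) and of 27.4 in NIH3T3 cells. The medians of the 2 whole lists were 3.97 and 6.75, and these heights too are not on 1 scale. The mRNA level was 8.24-fold higher in NIH3T3 cells on TPM + 1.

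**Figure D5:**
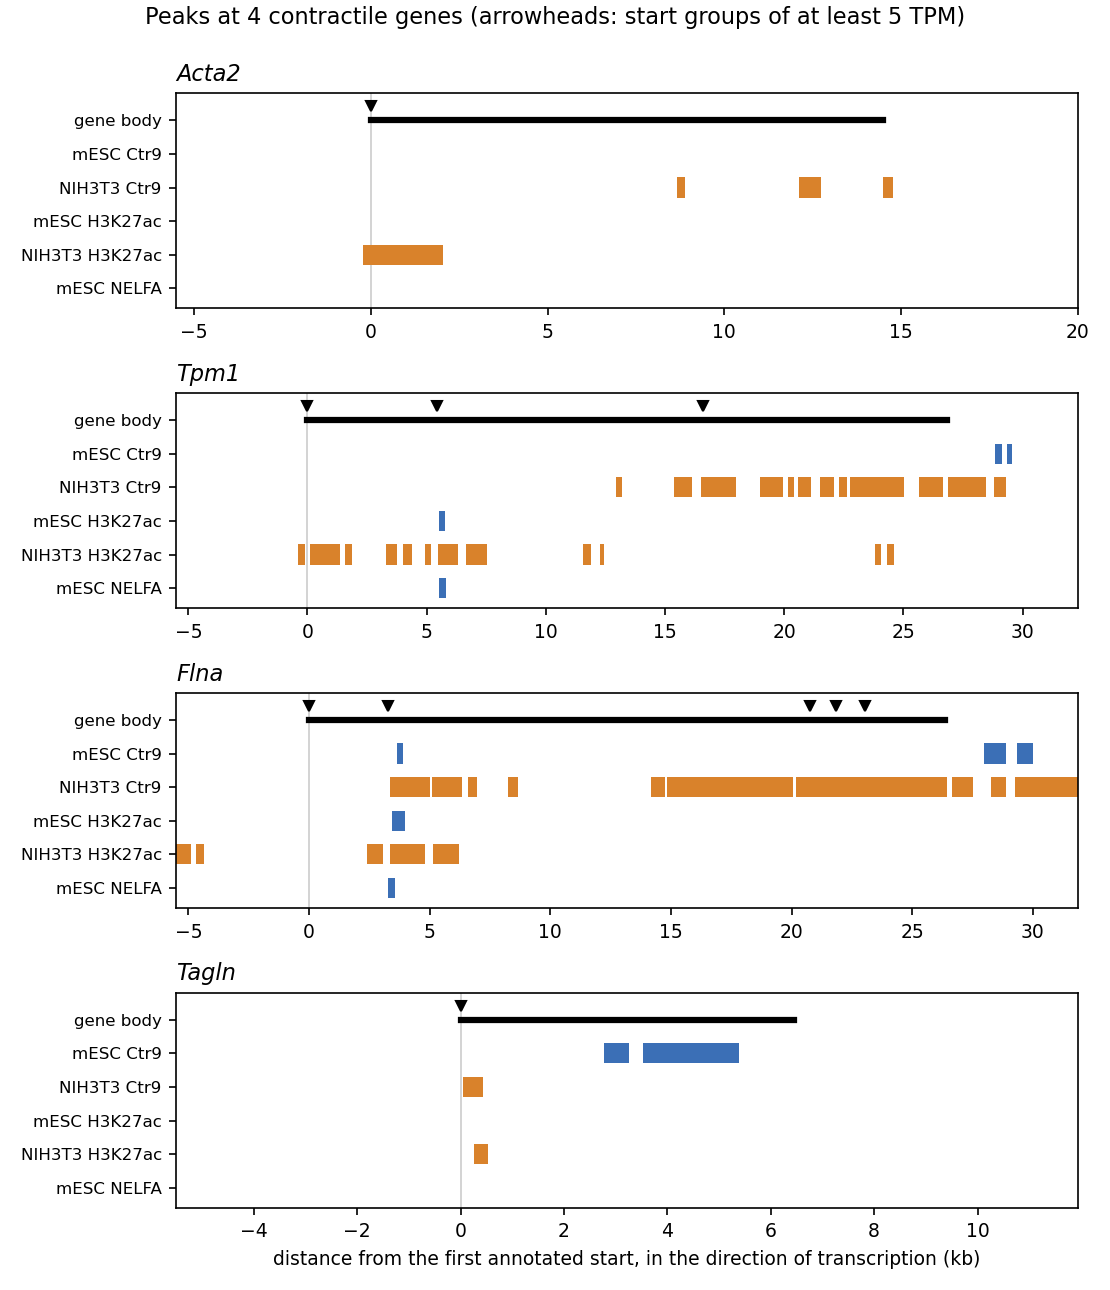
Peaks at Acta2, Tpm1, Flna and Tagln by distance from the first annotated start in kb, with mESC peaks in blue, NIH3T3 peaks in orange, the gene body as a black bar and arrowheads at start groups of at least 5 TPM in either library. Ctr9 in NIH3T3 cells covers the later part of Tpm1 and Flna, the mESC NELFA peaks lie at their internal starts, and at Tagln the Ctr9 peaks of the 2 cell types do not overlap.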

How the data were processed

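RNA-seq and ChIP-seq were measured in mESCs and NIH3T3 cells, with 1 library per cell type and target. Of the 12 samples, 9 have a file, and the 3 input libraries were not used here. The authors aligned ChIP-seq reads to mm10 with Bowtie2 2.3.5.1, removed blacklisted regions and called peaks in each library (MACS2 2.2.6, q-value limit 0.01). The deposited lists give a display score, fold enrichment, −log10 p and −log10 q. The authors estimated counts and TPM per transcript with kallisto 0.46.1 on GENCODE M19, and these estimated counts and TPM values were used as deposited, rounded after summing for intervals.

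The members and lists were chosen with earlier results of these data known. Software was scipy 1.17.1, numpy 2.4.6, pandas 2.3.3 and Python 3.11.15. Gene bodies, starts and neighbours came from GENCODE M21 on GRCm38.p6, matched by ID without version. The gene level was the highest TPM of its transcripts, genes under 1 TPM in both libraries were left out of the background, and a pseudocount of 1 was added. A peak belonged to a gene when at least 1 bp lay within 5 kb of the gene body. Expression classes followed TPM, with high as the top 25% of genes above 0 and silent as 0. Intervals are exact Poisson, or exact binomial for shares and ratios, at 95%. The rule for names took all 9 genes, their transcripts of at least 1 TPM, genes of the other lists past 2-fold with at least 10 TPM, Actb, Actg1, Srf, Mkl1, Mkl2, Myocd, and neighbours under a peak. For Tpm1, Flna and Tpm2 the text names part of those transcripts and gives the others in sums or counts. Other names (transcripts and genes at low level, relatives within 2-fold or lower, Fermt2 and Lasp1) were chosen after their values were seen. Overlap, start grouping, fold and interval code was tested on simulated data, and 8 of 8 checks passed.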

Additional observations from a re-analysis of the deposited data

How the results depend on the processing

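No paired analysis was possible because each cell type had 1 library and no replicate numbers. Under all 6 alternatives of the expression values (a pseudocount of 0.1, no filter, sums over all or over coding transcripts, scaling by the median ratio, CPM in place of TPM), 9 of 9 genes remained at least 2-fold higher in NIH3T3 cells. Of 65 alternative values of the main results, 61 moved by at most 1.5 times for counts or by less than the counting interval for shares. The RNAPII Ser5p and Ser2p counts among them were 0 and could not move, as each alternative removes peaks or narrows the window. Leaving out the filter on low values could not change the 9 genes either, as all of them pass it. Another alternative kept the same number of top peaks in both cell types. It left the smaller list whole, so Ctr9 in NIH3T3 cells and H3K27ac in mESCs could not move under it. Ctr9 in mESCs was found at 3 genes in the gene body alone and also at 3 with 1 kb on each side, as the peaks at Cnn1, Cnn2 and Tpm1 lie farther out. NELFA was found at 1 gene, Flna, at a −log10 q of at least 5. At that limit Tagln lost both of its peaks in NIH3T3 cells, which left Ctr9 at 4 genes and H3K27ac at 6 there. With starts joined only within 100 bases, the first start of Tpm1 held 44.9% of its TPM in NIH3T3 cells, because the most upstream start then formed a group of its own. Leaving out peaks that overlap another gene, an alternative chosen after seeing the data, changed no count of genes by over 1.5 times. Intervals cover counting error only, and peak lists without reads allow no statement on depth.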
